A study of Mus musculus with 6 samples.

Results

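The lysosome is the compartment in which cells break down what they take up and their own worn material. Its acid hydrolases cut proteins, sugar chains, sulfate esters and lipids, its membrane proteins hold and move the products, and the vacuolar ATPase (V-ATPase) pumps in the protons that keep it acidic. Factors of the MiT/TFE family bind short E-box words in the promoters of many lysosomal genes, and eosinophils are granulocytes of allergic inflammation whose granules are related to lysosomes. The 47 genes described here were chosen as named cathepsins, other lysosomal hydrolases and their activator precursors, lysosomal membrane proteins, V-ATPase subunits and MiT/TFE factors. All 47 were among the 16254 genes of the count table, and all 47 passed the filter on low counts that left 13498 genes for testing.

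Eosinophils were grown from C57BL/6 mouse bone marrow, with FLT3 ligand and stem cell factor and then with IL-5. The EV-treated group was 3 cultures given extracellular vesicles (EVs) purified by size exclusion chromatography from activated TH2 cell cultures. The dose was 5e+09 EVs per ml. The sham-treated group was 3 cultures given medium that had met no cells and had been carried through the same isolation, and both groups were collected at 24 h. Libraries were made from poly(A) RNA and summed to between 23697620 and 37874426 estimated counts. Values below are normalized counts, which are counts divided by the library size after TMM scaling, and a gene is called changed where edgeR's quasi-likelihood test across all genes tested gave it an adjusted p below 0.01. The labels call the samples biological replicates, and p-values measure the spread between these cultures. With 3 against 3, the smallest two-sided p of an exact permutation test is 0.1, so none is given for single genes.

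The cultures carried the RNA of eosinophils. All 11 eosinophil markers were detected and their summed level was 930213 to 1172120 normalized counts in sham-treated and 1329200 to 1486140 in EV-treated libraries, with 8 of 11 higher after EVs and 0 lower. For all genes tested, 12.1% were called higher and 11.6% lower. RNA of macrophage markers was also present, and 8 of the 11 tested were lower after EVs. Their summed level was 42131 to 57088 normalized counts in sham-treated and 39893 to 44389 in EV-treated libraries, a sum in which Adgre1, which eosinophils also express, was the largest member and the 1 marker that rose. Without Adgre1, left out after the values were seen, the sums were 20926 to 35993 and 7808 to 11025. Basophil and mast cell markers were higher for 4 of 6 tested and lower for 0, with sums of 2266 to 3332 normalized counts in sham-treated and 6491 to 8196 in EV-treated libraries, Cma1 not listed and Tpsb2 under 10 on average. Of 8 neutrophil markers 4 were lower and 1, Ly6g, was higher, and the sums of 17143 to 19542 and 15389.7 to 18964 overlapped, with Elane not listed. Of 5 osteoclast markers tested 3 were lower and 1 was higher, with sums of 6349 to 8111 and 10201 to 11408. Itgb3, the 1 that rose, was the largest member of these sums, at 3463 and 8839 normalized counts on average. For dendritic cells, 0 of 3 markers tested were called. T cell markers were close to absent, with sums of 173 to 225.5 and 153 to 189 normalized counts, Cd3e and Trbc1 not listed, and Cd3g, Cd4 and Trac under 10 on average. In bulk RNA, fewer cells of a type and less RNA per cell cannot be told apart, and the part of RNA from these other cell types in the lysosomal results was not tested. In the paper, eosinophils given activated TH2 cell EVs survived better at 24 h than untreated ones. Both groups here were collected at that time, and the part of cell survival in the lysosomal results was not tested.

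Of the 47 lysosomal genes, 29 were lower and 5 were higher in EV-treated eosinophils, and 13 were not called. Across all genes tested, 11.6% were called lower and 12.1% higher. Among genes with a mean at least that of the least abundant of the 47, 12.6% were called lower and 16.4% higher. A fall of at least 2-fold was called for 14 of the 47 genes against 6.35% of all genes, and a rise of that size for 0 of 47 against 3.1%. The median log2 fold change, EV-treated minus sham-treated, was -0.53 over the 47 genes and -0.014 over all genes tested. In 31 of the 47 genes every EV-treated library lay below every sham-treated library, and in 6 every one lay above. Among all genes tested 24.7% and 24.8% did so, 49.6% in either direction. Naglu, with an adjusted p of 0.00825, lay just inside the threshold and Idua, with 0.0102, just outside.

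**Figure D1:**
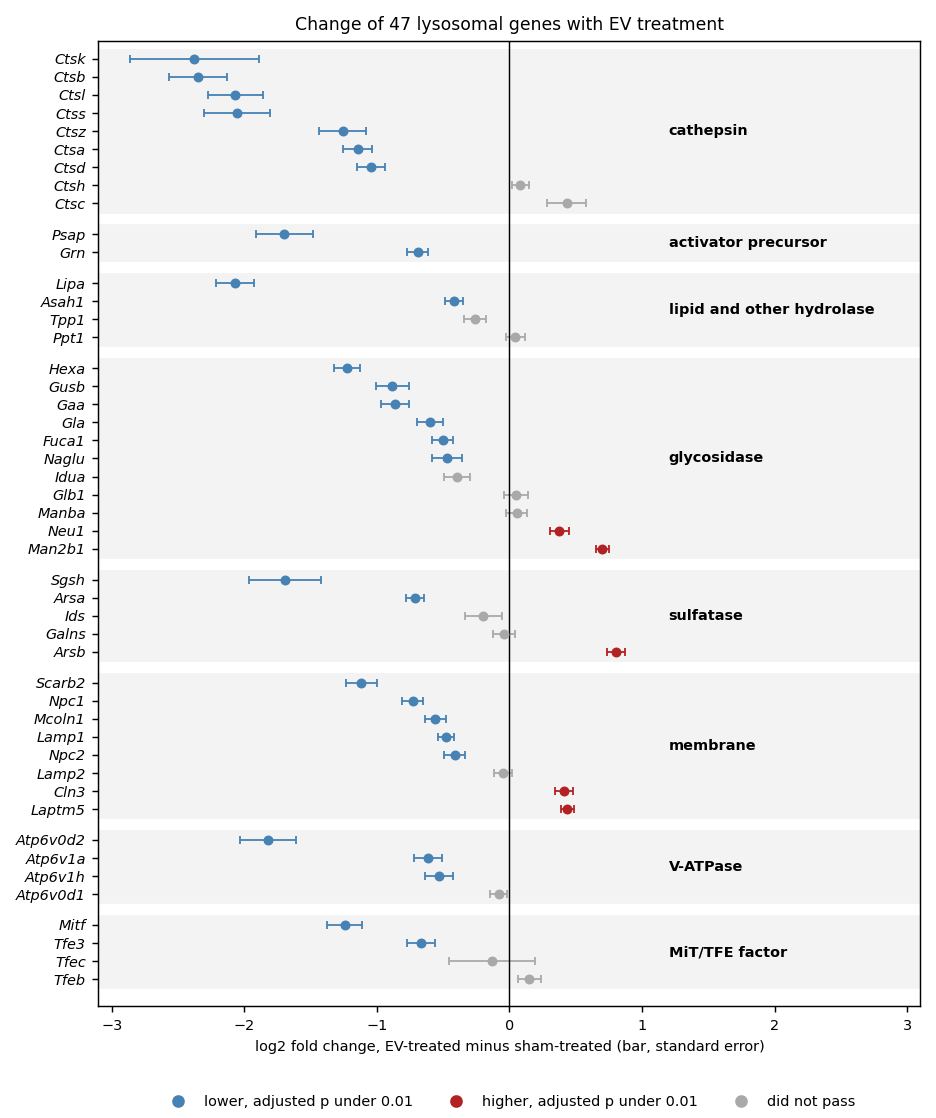
Log2 fold change of each of the 47 genes, EV-treated minus sham-treated, with the standard error as the bar and genes grouped by role. Of the 9 cathepsins 7 lie at or below -1.04, while the 5 genes called higher lie between 0.38 and 0.80.

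Together the 47 genes took 1.91%, 2.54% and 2.47% of the counts of sham replicates 1 to 3 and 1.30%, 1.41% and 1.39% of those of EV replicates 1 to 3. The groups did not overlap in this share. Most of the difference lay in the proteases: the 9 cathepsins held 0.790%, 1.15% and 1.12% of sham-treated counts and 0.377%, 0.419% and 0.409% of EV-treated counts. The 11 glycosidases went the other way as a sum, from between 0.310% and 0.315% to between 0.362% and 0.383%. That sum is mostly Man2b1, which rose from 58423 to 94981 normalized counts on average. The sums of all 11 were 91514 to 92606 in sham-treated and 116770 to 126205 in EV-treated libraries. By gene, 6 of the 11 were called lower and 2 higher.

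Promoters of 40 of the 47 genes could be matched by symbol in RefSeq (GRCm38.p6), as windows of 250 bases before to 50 after the start site. The windows were searched on both strands for the E-box word CACGTG and for the longer word TCACGTGA that contains it, both of which read the same on either strand. CACGTG was found in 14 of the 40 windows (35%), against 11.2% of the 9999 tested genes with a promoter and 7.15% of all 32851 windows. TCACGTGA was found in 7 of 40 (17.5%), against 2.09% of tested genes. By call, CACGTG was present in 11 of 24 genes that fell, 1 of 5 that rose and 2 of 11 that were not called. A match is a word in the window and not a measured binding site. The following stretches, from genes that fell and from Cln3, which rose, show the word in capitals in its surroundings, 5′ to 3′ on the strand of the gene and upstream of the start site.
Ctsa (fell, chr2:164833731-164833772, plus strand): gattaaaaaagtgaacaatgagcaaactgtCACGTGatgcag
Ctsd (fell, chr7:142387890-142387955, minus strand): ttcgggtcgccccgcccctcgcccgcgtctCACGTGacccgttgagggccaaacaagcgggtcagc
Atp6v1a (fell, chr16:44139355-44139420, minus strand): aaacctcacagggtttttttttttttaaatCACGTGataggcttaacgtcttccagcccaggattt
Gla (fell, chrX:134601164-134601229, minus strand): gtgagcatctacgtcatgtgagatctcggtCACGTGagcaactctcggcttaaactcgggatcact
Sgsh (fell, chr11:119355511-119355569, minus strand): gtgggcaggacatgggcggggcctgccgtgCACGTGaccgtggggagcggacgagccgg
Cln3 (rose, chr7:126583322-126583387, minus strand): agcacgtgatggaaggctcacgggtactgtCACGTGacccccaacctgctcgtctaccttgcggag
The Ctsa, Ctsd, Atp6v1a, Gla and Cln3 stretches hold TCACGTGA, the Sgsh stretch does not, and the Cln3 stretch has a second CACGTG near its left end, left in lower case.

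Among the cathepsins, the lysosomal proteases, 7 of 9 fell, all by at least 2-fold, and 0 rose. Ctsb, a cysteine protease on chromosome 14, measured 44278, 79548 and 77675 normalized counts in sham replicates 1 to 3 and 10207, 15040 and 14285 in EV replicates 1 to 3. Its groups were far apart, with a log2 fold change of -2.35 (SE 0.22, adjusted p = 2.08e-05). Ctsl, another cysteine protease, measured 7634, 14475 and 12850 normalized counts in the sham-treated and 2287, 3099 and 2950 in the EV-treated libraries, a log2 fold change of -2.07 (SE 0.21, adjusted p = 3.85e-05). Ctss, which trims the invariant chain of MHC class II in antigen-presenting cells, measured 11423, 21079 and 17915 normalized counts against 2758, 5150 and 4203, a log2 fold change of -2.06 (SE 0.25, adjusted p = 0.00012). In these 3 genes the lowest sham-treated library, replicate 1, was still more than any EV-treated one.

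Ctsd, the main aspartic protease of the lysosome, fell from 132996, 179738 and 179899 normalized counts to 75558, 80966 and 82310, a log2 fold change of -1.04 (SE 0.10, adjusted p = 3.32e-05). Ctsa, a serine carboxypeptidase that also protects the enzymes made from Glb1 and Neu1, fell from 7935, 10947 and 10705 to 4208, 4526 and 4635, a log2 fold change of -1.15 (SE 0.11, adjusted p = 3e-05). Ctsz, a carboxypeptidase, fell from 4812, 7361 and 7194 to 2088, 3218 and 2777, a log2 fold change of -1.26 (SE 0.18, adjusted p = 0.000395). EV-treated libraries were close to each other for Ctsa and Ctsd and more spread for Ctsz.

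Ctsk, the collagen-cutting protease best known from osteoclasts, gave the least even fall, with 955, 629 and 672 normalized counts in sham-treated and 298, 69.4 and 72.2 in EV-treated libraries. The groups did not overlap, but EV replicate 1 stood over 4 times as high as the other EV-treated libraries, and the log2 fold change of -2.38 had the widest error of the cathepsins (SE 0.49, adjusted p = 0.00362). Of the osteoclast markers beside it, Acp5, Dcstamp and Mmp9 fell, Itgb3 rose and Ocstamp was not called. Ctsh and Ctsc were the cathepsins not called. Ctsh, an aminopeptidase, had a sham-treated mean of 20985 ± 1627 normalized counts and an EV-treated mean of 22224 ± 441 (SD, n = 3 each), with a 95% interval of the log2 fold change from -0.06 to 0.22. Ctsc, which activates granule serine proteases, averaged 1096 ± 249.8 (SD, n = 3) and 1474 ± 37.3 (SD, n = 3), with an adjusted p of 0.0424.

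**Figure D2:**
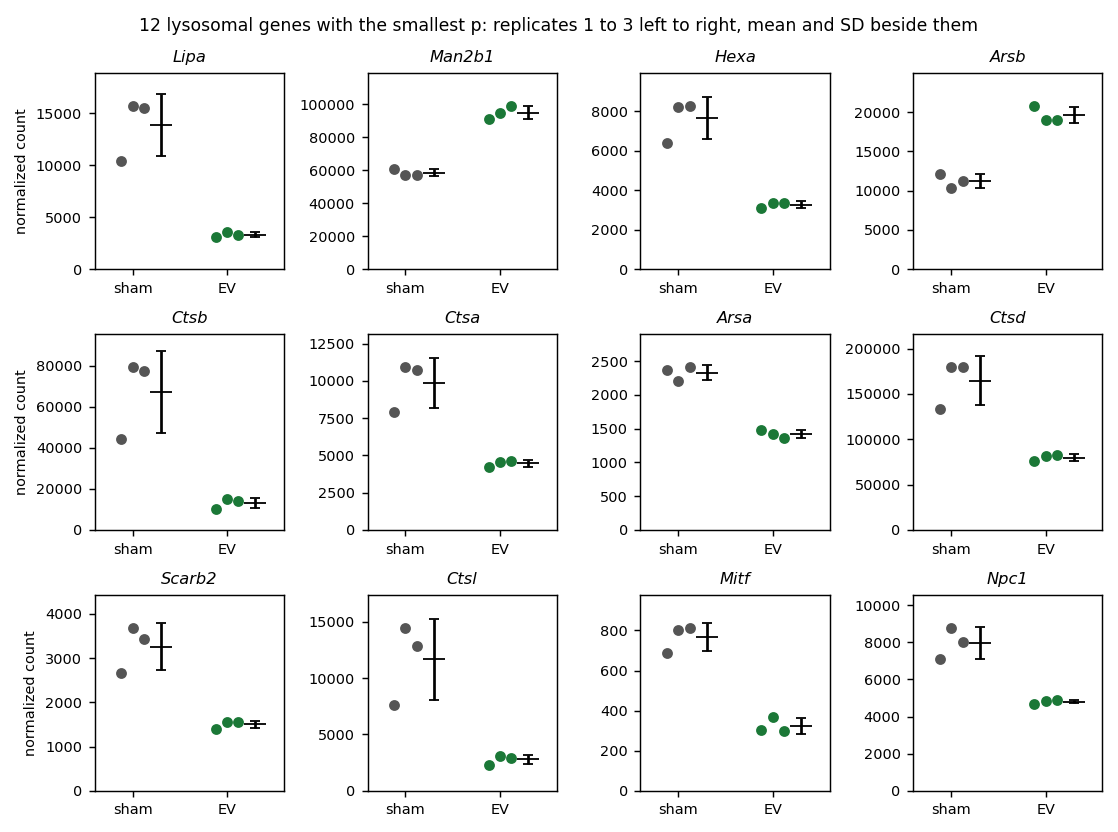
Normalized counts of the 12 lysosomal genes with the smallest p, each panel from 0, with sham-treated (grey) and EV-treated (green) replicates 1 to 3 as points from left to right and the mean with its SD beside them. No panel has overlapping groups; Man2b1 and Arsb are the 2 that rose.

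Both activator precursors fell. Psap, which is cut into the saposins that present lipids to hydrolases, measured 71463, 124664 and 118091 normalized counts in sham-treated and 23728, 38179.9 and 34810 in EV-treated libraries, a log2 fold change of -1.70 (SE 0.22, adjusted p = 0.000172). Grn, the precursor of the granulins, averaged 22070.1 ± 2161 (SD, n = 3) against 13654 ± 953 (SD, n = 3), a log2 fold change of -0.69 (SE 0.08, adjusted p = 9.67e-05).

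Lipa, the acid lipase that frees cholesterol and fatty acids from lipoprotein lipids, had the smallest p of the 47 genes. It measured 10374, 15703 and 15513 normalized counts in sham-treated and 3075, 3526 and 3276 in EV-treated libraries, a log2 fold change of -2.07 (SE 0.14, adjusted p = 3.15e-06). Asah1, the acid ceramidase, fell by 0.42 on the log2 scale (SE 0.07, adjusted p = 0.000861). Neither of the remaining hydrolases was called. Tpp1, a tripeptidyl peptidase, lay at -0.26 on the log2 scale (adjusted p = 0.0311), and Ppt1, which removes palmitate from proteins, one of 0.05 with a 95% interval from -0.12 to 0.21.

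Of the 11 glycosidases, which trim sugar chains, 6 fell, 2 rose and 3 were not called. Hexa, the alpha subunit of beta-hexosaminidase, measured 6410 (replicate 1), 8226 and 8275 normalized counts in sham-treated and 3076, 3365 and 3361 in EV-treated libraries, a log2 fold change of -1.22 (SE 0.10, adjusted p = 8.27e-06). Gusb (beta-glucuronidase) and Gaa (the glycogen-cutting acid alpha-glucosidase) fell by 0.88 and 0.86 on the log2 scale. Smaller falls were called for Gla (alpha-galactosidase A), Fuca1 (alpha-fucosidase) and Naglu (an alpha-N-acetylglucosaminidase of heparan sulfate), at -0.60, -0.50 and -0.47. These 6 had adjusted p values from 8.27e-06 to 0.00825. Idua (alpha-iduronidase) had a log2 fold change of -0.39 and missed the threshold, although its groups did not overlap.

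Man2b1, a lysosomal alpha-mannosidase, was the clearest exception to the falls. It measured 60883, 57194 and 57194 normalized counts in sham-treated and 91242, 94667 and 99035 in EV-treated libraries, a log2 fold change of 0.70 (SE 0.05, adjusted p = 4.59e-06). Neu1, a sialidase, rose by 0.38 on the log2 scale (SE 0.07, adjusted p = 0.00244). For Glb1 (beta-galactosidase) and Manba (beta-mannosidase) the log2 fold changes were 0.05 and 0.06, with 95% intervals from -0.15 to 0.25 and from -0.12 to 0.23.

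The sulfatases also split. Sgsh, which acts on heparan sulfate, measured 326, 759 and 508 normalized counts in sham-treated and 146, 173 and 172 in EV-treated libraries, a log2 fold change of -1.69 (SE 0.27, adjusted p = 0.000836). Arsa, which acts on sulfatides, measured 2369, 2207 and 2417 against 1487, 1417 and 1365, a log2 fold change of -0.71 (SE 0.07, adjusted p = 3.19e-05). Arsb, which acts on dermatan and chondroitin sulfate, went up, from 12159, 10281 and 11262 to 20809, 19038 and 19013, a log2 fold change of 0.80 (SE 0.07, adjusted p = 1.51e-05). The sham-treated spread was widest in Sgsh, where replicate 2 was over 2 times replicate 1, and narrow in Arsa. Ids and Galns, a sulfatase of heparan and dermatan sulfate and one of keratan sulfate, were not called, at -0.20 (adjusted p = 0.326) and -0.04 (adjusted p = 0.757).

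Of the 8 genes grouped as membrane proteins, a group that also holds the soluble cholesterol carrier Npc2, 5 fell, 2 rose and 1 was not called. Scarb2, a receptor that carries a hydrolase to lysosomes, measured 2658, 3690.1 and 3428 normalized counts in sham-treated and 1407, 1551 and 1548 in EV-treated libraries, a log2 fold change of -1.12 (SE 0.11, adjusted p = 3.85e-05). Npc1, which moves cholesterol out of the lysosome, measured 7097, 8798 and 8044 against 4701, 4833 and 4903, a log2 fold change of -0.73 (SE 0.08, adjusted p = 5.71e-05). Its partner Npc2 fell less, at -0.41 (adjusted p = 0.00264), and the calcium channel gene Mcoln1 lay at -0.56 (adjusted p = 0.000389). The LAMP glycoproteins, abundant proteins of the lysosomal membrane, differed in their calls. Lamp1 fell by 0.48 on the log2 scale (SE 0.06, adjusted p = 0.000193), while Lamp2 was at -0.05 with a 95% interval from -0.20 to 0.10. The rises were in Laptm5, a membrane protein of blood cells (0.44, SE 0.05, adjusted p = 6.8e-05), and in Cln3 (0.41, SE 0.07, adjusted p = 0.00116).

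The V-ATPase subunits included both forms of the d subunit. Atp6v0d2, the form known from osteoclasts and macrophages, measured 2574, 4211 and 4439 normalized counts in sham-treated and 796, 1241 and 1129 in EV-treated libraries, a log2 fold change of -1.82 (SE 0.21, adjusted p = 9.51e-05). Atp6v0d1, the widely expressed form, measured 4253, 4309 and 4706 against 4056, 4169.9 and 4328, and the groups overlapped. Its log2 fold change was -0.08 with a 95% interval from -0.22 to 0.06, and that of Atp6v0d2 ran from -2.29 to -1.35; the difference between these 2 genes was not tested. Of the subunits of the V1 sector, which holds the ATP-cutting sites, Atp6v1a fell by 0.61 (adjusted p = 0.00128) and Atp6v1h by 0.53 (adjusted p = 0.00299) on the log2 scale.

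The 4 MiT/TFE factors did not move as a block. Mitf measured 688, 803 and 814 normalized counts in sham-treated and 305, 369 and 299 in EV-treated libraries, a log2 fold change of -1.24 (SE 0.13, adjusted p = 5.18e-05). Tfe3 measured 1190.3, 1462 and 1516 against 886, 807 and 927, a log2 fold change of -0.67 (SE 0.11, adjusted p = 0.000828). Tfeb measured 2335, 2166 and 2068 against 2248, 2319 and 2716, with overlapping groups and a log2 fold change of 0.15 (95% interval from -0.04 to 0.34). Tfec, at 123, 223 and 243 against 109, 197 and 229 normalized counts, overlapped too, and its interval, from -0.85 to 0.59, is wide. These are transcript levels, and the activity of these factors, which is set largely by where the protein sits in the cell, was not measured.

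As counts per kilobase of the longest coding transcript and per 1000000 of the library size after TMM scaling, the order of the 47 genes changed at its top. Ctsd stood first in both groups, with 2502 ± 412 without EVs and 1213 ± 54.5 with them (SD, n = 3 each). In sham-treated eosinophils it was followed by Psap, Man2b1, Ctsb and Laptm5, and in EV-treated ones by Man2b1, Laptm5, Ctsh and Psap. Ctsb moved from rank 4 to rank 11 and Lipa from 10 to 20. Neighbours are often closer than their spread: Ctsb (459 ± 136, SD, n = 3) and Laptm5 (454 ± 8.78, SD, n = 3) cannot be ordered in sham-treated libraries. The rank of Ctsl depends on the transcript taken, 20 and then 34 with the longest coding transcript of 6168 bases and 10 and then 18 with the shortest principal transcript of 1971 bases, a length tried after the values were seen. The other 46 genes moved by at most 3 ranks.

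**Figure D3:**
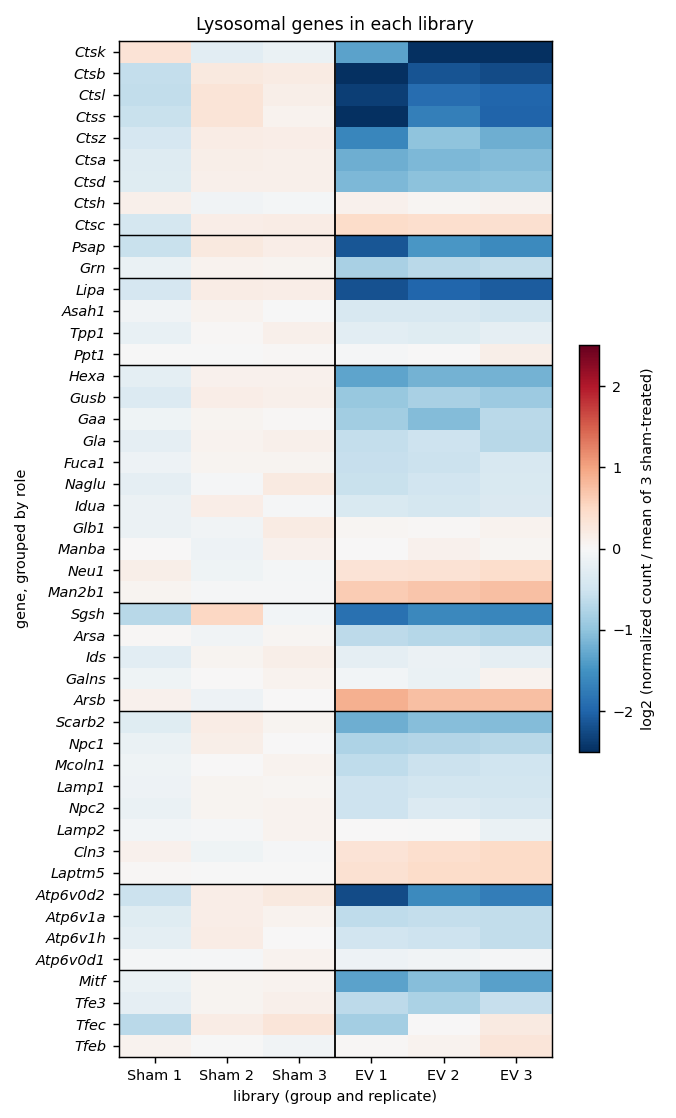
Log2 of each library's normalized count over the mean of the 3 sham-treated libraries, for the 47 genes in rows by role and the 6 libraries in columns, with blue below and red above that mean and the colours ending at -2.5 and 2.5. Sham 1 is paler or bluer than Sham 2 and Sham 3 in most of the rows that are blue in the EV-treated libraries.

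Within the groups, replicate 1 stood lowest for most of the genes that fell. Of those 29 genes, sham replicate 1 was the lowest sham-treated library in 27 and EV replicate 1 the lowest EV-treated library in 21. Of the 13 genes not called, sham replicate 1 was lowest in 9 and EV replicate 1 in 5, each within its own group. The order of the libraries over all genes was not examined. The 11 macrophage markers tested were lowest in replicate 1 for 10 of 11 in both groups, and sham replicate 1 stood at a median of 0.52 times the mean of the other sham-treated libraries for these markers and 0.79 times for the 29 genes. Of the 5 genes that rose, sham replicate 2 was the lowest sham-treated library in 5 and EV replicate 1 the lowest EV-treated library in 4. With sham replicate 1 left out, 30 genes were called lower and 5 higher, with Idua (adjusted p = 0.00342) and Tpp1 (0.00301) gained and Ctsk lost. The 8 macrophage markers that fell had log2 fold changes from -3.38 (Cd14) to -1.31 (Csf1r), with Mertk at -2.85 and C1qa at -2.58, while Mrc1 and Fcgr1 were not called. The part of macrophage RNA in these falls was not tested.

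**Figure D4:**
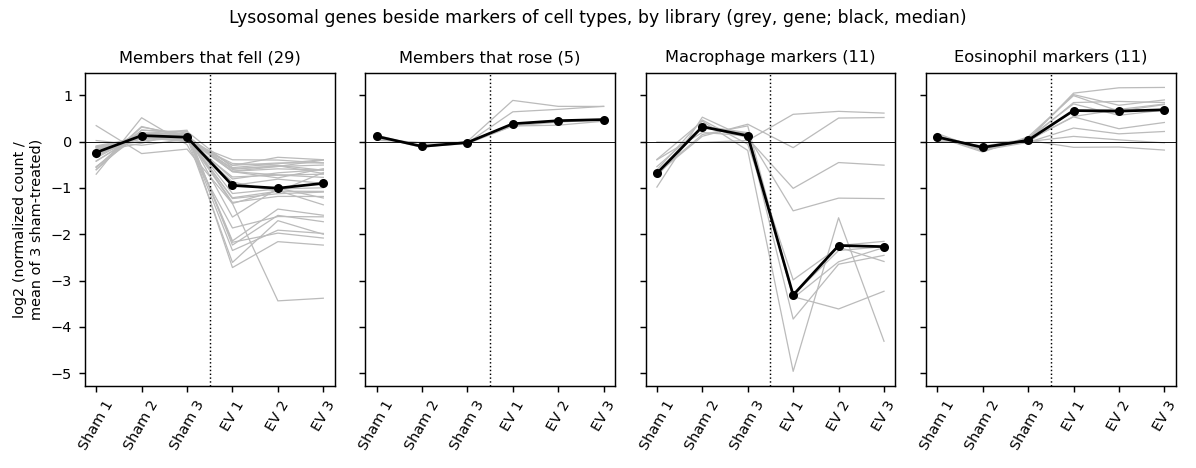
Log2 of each library's normalized count over the mean of the 3 sham-treated libraries, with grey lines for genes and black points for their median, for the 29 lysosomal genes that fell, the 5 that rose, 11 macrophage markers and 11 eosinophil markers. The genes that fell and the macrophage markers both dip in Sham 1; 8 of 11 eosinophil markers rose.

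Other genes of the pathway were taken from lists written by function. Beside the counts that follow, 11.6% of all genes tested were called lower and 12.1% higher. Of 37 other lysosomal hydrolases and their cofactors tested, 17 were lower and 4 higher, with a median log2 fold change of -0.58. The 3 with the smallest p rose: Ggh, which trims folate polyglutamates, by 1.48 on the log2 scale (SE 0.07, adjusted p = 3.83e-07), Naaa, an acid amidase, by 1.96 (SE 0.11, adjusted p = 8.08e-07), and Gm2a, the activator that presents GM2 ganglioside to beta-hexosaminidase, by 1.15 (SE 0.07, adjusted p = 1.06e-06). Gm2a had a sham-treated mean of 8771 ± 654 normalized counts and an EV-treated mean of 19454 ± 777 (SD, n = 3 each), whereas Hexa fell, as given above.

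Of 34 other lysosomal membrane proteins tested, from 35 listed, 13 were lower and 1 higher. Those with the smallest p were Cd68, a glycoprotein of phagocyte lysosomes (-2.13, SE 0.17, adjusted p = 7.7e-06), Slc11a1, a metal ion transporter of phagosomes (-2.40, SE 0.20, adjusted p = 1.1e-05), and Mfsd12 (-1.21, SE 0.11, adjusted p = 1.36e-05), all as log2 fold changes. Of 16 other V-ATPase subunits tested, from 21 listed, 6 were lower and 1 higher, and Atp6v1g1, Tcirg1 and Atp6v1c1 led with -0.76, -0.86 and -0.93. Among 9 genes of enzyme sorting 3 fell and 0 rose. They were Igf2r, a mannose 6-phosphate receptor that delivers hydrolases (-1.82, SE 0.11, adjusted p = 1.55e-06), Gnptab, which makes its tag (-0.80, adjusted p = 0.000263), and Sort1 (-0.24, adjusted p = 0.00895). M6pr, another mannose 6-phosphate receptor of the list, was not called (-0.11, adjusted p = 0.369).

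Of 12 genes listed as docking mTORC1, the nutrient-sensing kinase complex, at lysosomes, 11 were tested, 4 fell and 0 rose. Rragd, a Rag GTPase, measured 208, 277 and 294 normalized counts in sham-treated and 29.97, 23.1 and 33.9 in the EV-treated libraries, a log2 fold change of -3.16 (SE 0.26, adjusted p = 9.61e-06). Fnip2, a folliculin partner, lay at -1.63 and the scaffold gene Lamtor3 at -0.42. Of 7 cystatins and stefins tested, from 14 listed, inhibitors of cysteine cathepsins, 2 rose and 2 fell. Cst7 rose from 807, 613 and 731 to 2935, 2871 and 2986 normalized counts, a log2 fold change of 2.03 (SE 0.10, adjusted p = 3.42e-07), and Cst3 by 0.39 (adjusted p = 0.0024). Cstb fell by 1.03 on the log2 scale (adjusted p = 0.00109). Stfa1, the other gene of this list that fell, averaged 24.5 normalized counts in sham-treated and 0 in EV-treated libraries. Cathepsin activity was not measured.

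**Figure D5:**
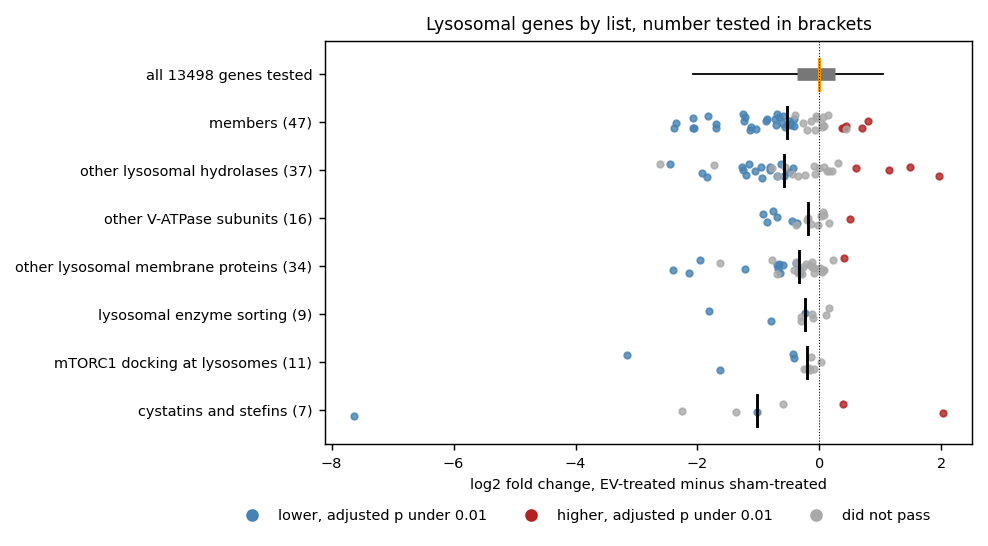
Log2 fold change, EV-treated minus sham-treated, of each gene in the 47 (members) and in 6 other lists, with a black bar at each median; for all 13498 genes the grey box spans the interquartile range, the thin line the 5th to 95th percentile and the orange bar the median. The leftmost point, Stfa1, has no count in any EV-treated library, so its place depends on the fit's prior count and is no measured fold.

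Several genes share sequence with a neighbour, and reads there could be assigned to either. The percent of 31-base words of a gene's transcripts that occur in another gene was 59.4% for Arsb (with Gm26527 on the opposite strand), 36.6% for Ctsd (with Gm49369), 29% for Ctsl, 20.8% for Sgsh, 19.3% for Ctsa (with Pltp), 17.6% for Arsa and 16.6% for Ctsb (with Fdft1). For Cln3, Hexa and Npc1 it was 11.6%, 11.4% and 10.2%. Gm26527, and the genes sharing words with Ctsl (Gm47123) and Arsa (C230037L18Rik), were not among the genes of the count table. Their levels could not be compared with those of Arsb, Ctsl and Arsa. Pltp fell from 1009 to 93.8 and Gm49369 changed from 114.8 to 49.3 normalized counts on average (adjusted p = 0.028, not called), both far below Ctsa and Ctsd, while Fdft1 rose and Ctsb fell. Apobr, which shares words with Cln3, was more abundant than Cln3 and rose in the same direction by more, from 10868 to 20366 normalized counts on average (log2 fold change 0.91, adjusted p = 1.62e-05), against 6651 to 8851 for Cln3. The part of Apobr reads in the rise of Cln3 was not tested. Tmem202, which shares words with Hexa, averaged 49.96 and 12.9 normalized counts, far below Hexa, and Rmc1, which shares words with Npc1, was not called (log2 fold change 0.18, adjusted p = 0.113). Whether the libraries keep strand is not given in the sources used here.

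Of the 34 genes called, 29 kept the call in each of the 6 fits that left out 1 library. The exceptions were Ctsk, Naglu, Npc2, Atp6v1h and Neu1, with the direction unchanged in every fit. Ctsk lost the call without EV replicate 2 (adjusted p = 0.0148) or 3 (0.0176) or sham replicate 1 (0.0126) or 3 (0.0133), and its log2 fold change was -3.40 without EV replicate 1. Naglu kept it only without sham replicate 1, and its other adjusted p values ran from 0.0183 to 0.0392. Npc2 lost it without EV replicate 1 (0.0149) or 3 (0.014) or sham replicate 2 (0.012) or 3 (0.0148). Atp6v1h and Neu1 lost it without EV replicate 2 (0.0155 and 0.0105), EV replicate 3 (0.022 and 0.0154) or sham replicate 3 (0.0136 and 0.014).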

How the data were processed

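RNA was sequenced from 3 sham-treated and 3 EV-treated cultures, grouped by the treatment in the labels. Per the submitters' processing notes, the authors used FastQC, cutadapt, Salmon and DESeq2 with build mm10; versions, annotation and strandedness are not given in the sources used here. The authors deposited estimated counts for 16254 genes, 11159 of them with a value that is not whole. A second deposited table holds the authors' normalized counts, a signal equal to the rounded count plus 1 over a size factor for nearly all genes, used only for limma. The authors' own table of the comparison, with fold changes and p-values, was not used.

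Counts were rounded and tested with edgeR 4.0.16 in R 4.3.3 (TMM, filterByExpr, quasi-likelihood test, Benjamini-Hochberg adjustment over 13498 genes); the SE is the log2 fold change over the square root of F. DESeq2 1.42.0, limma 3.58.1 (pseudocount 1), other scalings, no filter, the replicate block, other thresholds and leaving out each library were alternatives. The tests were first tried on simulated data. Lengths and shared 31-base words come from GENCODE vM21, promoters from RefSeq. Every one of the 47 genes was named; values per library were given for the 12 smallest p values, the d subunits, the MiT/TFE factors and genes without overlap changed at least 2-fold; 3 genes per further list were named by p. The sum without Adgre1 was chosen after its values were seen. Single values of some genes of the lists are not reported here. Other genes of the lists, markers included, that are named beside a result were also chosen so. The 47 genes and all lists were chosen with earlier results of these data known.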

Additional observations from a re-analysis of the deposited data

How the results depend on the processing

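The direction of every called lysosomal gene was the same under each alternative run. Requiring a 2-fold change left 0 of the 47 genes higher and 14 lower, and 419 of all genes higher and 857 lower; an adjusted p under 0.05 gave 2362 of all genes higher and 2478 lower, and 6 of the 47 higher and 31 lower. Library size without TMM shifted the median of all genes from -0.014 to -0.16 on the log2 scale, gave 1036 genes higher and 2342 lower (30.7% of calls higher, against 50.9%), and called 31 of the 47 lower and 4 higher, with Neu1 no longer called (adjusted p = 0.0204); enzyme sorting then had 5 genes called and mTORC1 docking 7. Relative to that shift the median of the 47, -0.68, stayed lower. DESeq2 called 30 lower and 5 higher, upper quartile scaling 30 and 5, and DESeq2 size factors, limma and no filter 29 and 5 each. Enzyme sorting had 2 genes called with DESeq2 size factors or with no filter and 4 with upper quartile scaling, against 3 in the main test. Idua passed with DESeq2, the block, upper quartile scaling and no TMM, and Tpp1 with no TMM; both also passed without sham replicate 1. Leaving out 1 library gave between 1071 and 1833 genes higher and between 1018 and 1698 lower; the fewest came without EV replicate 3, and without EV replicate 2 there were 1044 lower. Of the 47, these fits called 25 to 30 lower and 4 to 5 higher.

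Replicate numbers are shared by the groups, but same-numbered libraries deviated together only weakly (r = 0.117, 0.0846 and 0.0371 across 13498 genes, which are not independent). EV replicate 3 correlated best with sham replicate 2 (0.0487), and the main test did not take the numbers as pairs. Replicate 1 was the lowest library in both groups for most of the genes that fell and most macrophage markers, as given above. Whether same-numbered cultures share a source was not tested. With the replicate block, 1794 genes were higher and 1781 lower, and 30 of the 47 were lower and 6 higher, Ctsc among them (adjusted p = 0.00737). The least abundant of the 47, Tfec, averaged 187 normalized counts, and its 95% interval, given above, is wide. An effect of depth on the calls was not tested.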
